A study of Mus musculus with 38 samples.

Results

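The potassium channel genes described here are all genes whose symbol is Kcn followed by lower-case letters and a number, leaving out Kcnn2 and Kcnj13. Of 54165 genes counted, 90 met that rule. They were measured by bulk RNA-seq in the prefrontal cortex (PFC) and the hypothalamus (Hypo) of adult FVB/NJ mice of both sexes. Ube3a2X mice were homozygous and carried 2 copies of a Ube3a transgene, and their wild-type (WT) littermates carried none; both came from heterozygous parents, and no other allele or treatment was given. In PFC there were 5 libraries for each combination of genotype and sex, and in Hypo 5 for each sex of Ube3a2X and 4 for each sex of WT. The 38 libraries came from 25 mice, of which 13 gave both tissues. The labels name more WT mice per sex in PFC than the study's methods give, and the labels were followed. The comparisons ask how the family differs between the tissues, and whether an extra dose of Ube3a, alone or together with sex, shifts it.

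Potassium channels set the resting potential of a neuron, the shape of its action potentials and how often it fires. Voltage-gated Kv channels open on depolarization, calcium- and sodium-activated channels open when those ions rise inside the cell, inward rectifiers pass current best near rest and buffer potassium in glia, and K2P channels carry background leak. Silent Kv subunits form no channel alone and alter the Kv2 channels they join, and auxiliary subunits change the gating or trafficking of the pores they bind.

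The number of counted reads per library ran from 36887511 to 69142160 in PFC and from 39048341 to 380819301 in Hypo. Ube3a was the check of the genotype labels. It ran from 186.5 to 268.0 CPM (read counts scaled to library size with TMM factors) in WT and from 697.7 CPM upward in Ube3a2X in PFC, and from 105.3 to 348.8 CPM and from 705.6 CPM upward in Hypo, without overlap. The tissue labels held as well, since 10 of 10 markers of cortical excitatory neurons were higher in PFC and 12 of 12 markers of hypothalamic neurons were higher in Hypo. The RNA kits and input amounts differed by tissue, so that tissue and extraction cannot be told apart. RNA quality differed too, with a median RIN (the RNA integrity number) of 7.6 in PFC and 8.95 in Hypo, a median ratio of 5′ to 3′ coverage of 0.442 and 0.735, and a median of 93.7% and 98.4% of reads on the strand of the transcript. The test takes RIN as a covariate, and the part of the other measures in the tissue differences was not tested. P-values measure the spread between libraries, each from a different mouse within a tissue. The main tissue test does not pair the libraries of the 13 mice that gave both tissues. Fits with the mouse as a block are given as alternatives.

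Library 471 of the Hypo WT females stood apart in this family. Of 74 members with a median of at least 1 CPM in Hypo, it held the lowest of 18 values for 38 and the highest for 12, and 17 members lay more than 1.5-fold below every other Hypo library. Each other Hypo library had at most 1 such member. In library 471 Kcna3 was at 0.351 CPM (15 reads) against 12.7 to 20.3 CPM elsewhere in Hypo, and Kcna1 at 3.79 CPM against 21.2 to 41.4 CPM. It also had the highest share of bases in untranslated regions (53.7%) and the lowest ratio of 5′ to 3′ coverage (0.489) of the Hypo libraries; their part in the channel values was not tested. Ranges below include this library unless they say otherwise. It alone sets the lower Hypo limit of Kcnh7 (the others began at 42.2 CPM), Kcnh1 (45.4 CPM), Kcnq5 (35.2 CPM), Kcnv1 (9.46 CPM), Kcnma1 (176.0 CPM), Kcnt2 (12.9 CPM), Kcnn3 (57.2 CPM) and Kcnj6 (16.8 CPM). In PFC, library 468 of the Ube3a2X females held the highest of 20 values for 21 of 70 members and the lowest for 13. It lay above all others by more than the same factor for 3, Kcna2 (the others reached 548.6 CPM), Kcnh7 (344.4 CPM) and Kcnq3 (401.0 CPM). It had the fewest reads of all libraries and the lowest ratio of 5′ to 3′ coverage (0.265), whose part in these values was not tested.

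**Figure D1:**
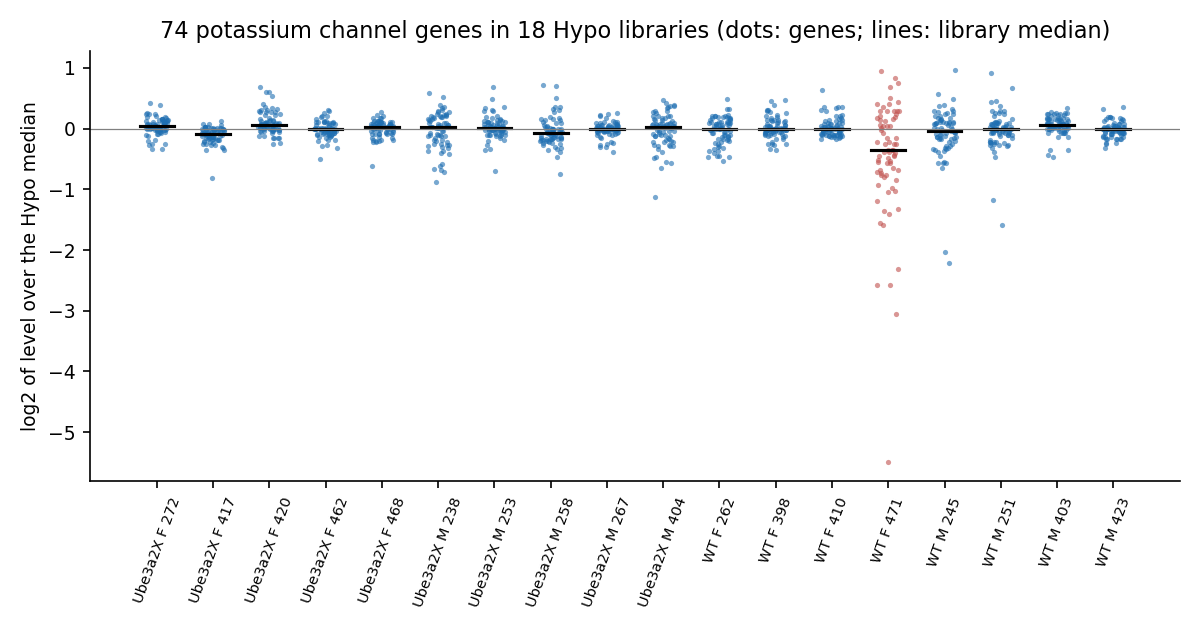
Level of 74 potassium channel genes in each of the 18 Hypo libraries, on the y axis as the log2 of the level over the median of all Hypo libraries; each dot is a gene and each black line the median of a library, and library 471 of the WT females is in red. Library 471 has a median of -0.35, while the medians of the other libraries lie near 0.

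Potassium channel transcripts were higher in PFC than in Hypo as a family. Summed over the 90 members and scaled to exon length, the level was 1098 to 1300 CPM per kb (median 1184) in PFC and 533.2 to 734.9 CPM per kb (median 685.3) in Hypo, and the tissues did not overlap. By edgeR's quasi-likelihood test with Benjamini-Hochberg adjustment, at an adjusted p under 0.05, 51 of 83 tested members were higher in PFC, where the background over all 22282 genes tested was 31.0%. In the other direction 20 members were higher in Hypo (background 32.4%), and 12 did not pass. With a difference of at least 2-fold added, 33 were higher in PFC (background 13.7%) and 13 in Hypo (background 14.6%). The median log2 difference, PFC minus Hypo, was 0.63 over the members and -0.02 over all genes tested. For 38 members every PFC library lay above every Hypo library (background 10.9%), and for 7 the reverse held (background 9.51%), or 10 without library 471. All 71 members that passed kept their sign within each of the 4 combinations of sex and genotype. The test averages these 4 differences, so this is no separate support, and the share over all genes was not computed. These are bulk samples, in which fewer cells of a type and less RNA per cell cannot be told apart.

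The 7 members not tested, Kcna7, Kcne1, Kcne2, Kcnj1, Kcnk16, Kcnk18 and Kcnmb3, had at most 15 reads in any library. Among those tested, Kcnk7, Kcnk15, Kcnn4 and Kcnv2 passed the filter on low counts only through Hypo, and Kcne3 only through PFC. Each of these passed through the tissue in which it was higher, so its call is no support, and none of them passed with the mouse as a fixed block. Without these 5 the counts over 78 members were 50 higher in PFC and 16 higher in Hypo, of which 32 and 9 by at least 2-fold. Leaving out library 471 kept all 71 calls and moved no member by more than 0.077 on the log2 scale.

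**Figure D2:**
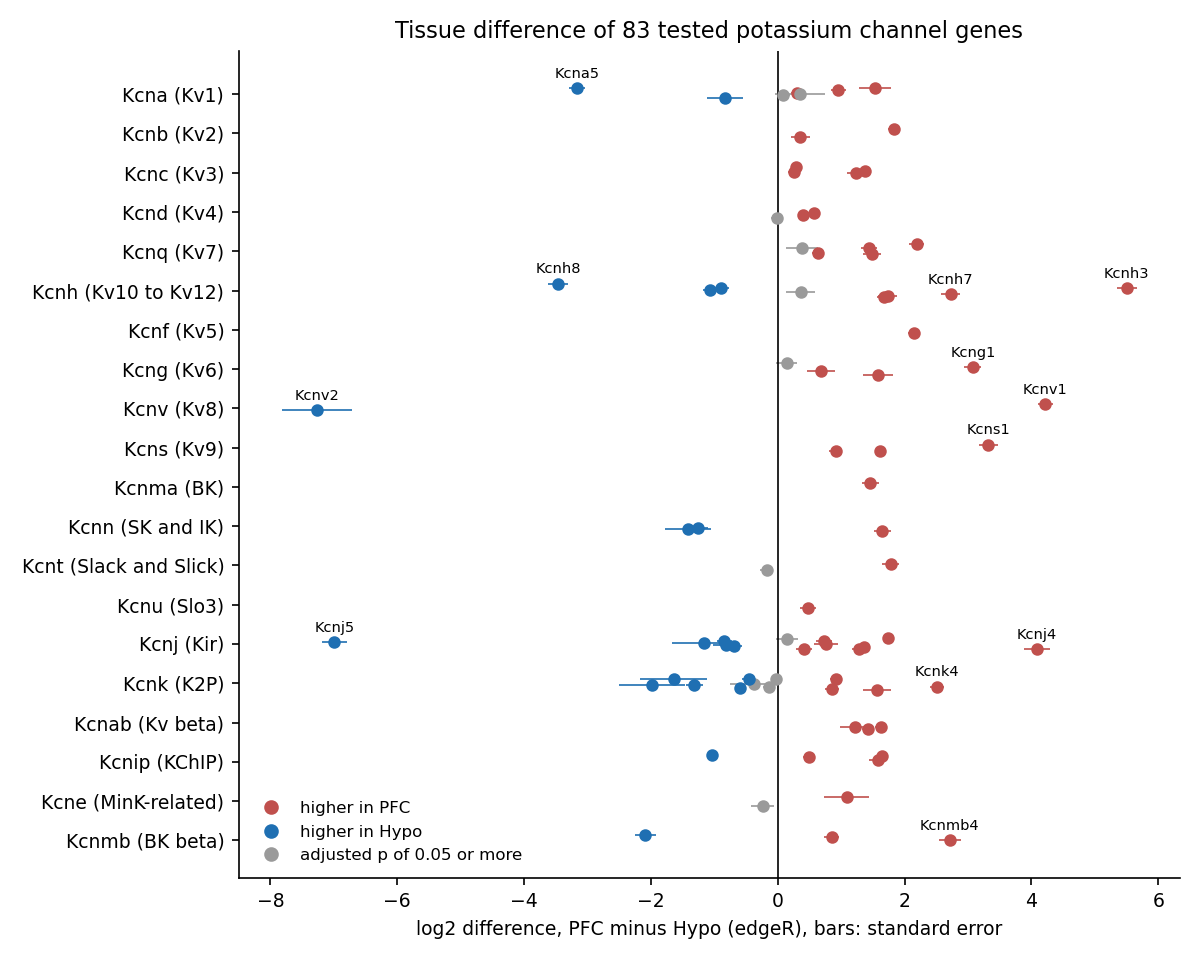
Difference between PFC and Hypo of the 83 tested members by subfamily, on the x axis as the log2 of PFC over Hypo with its standard error; red dots were higher in PFC, blue dots higher in Hypo and grey dots did not pass an adjusted p of 0.05. Most dots lie to the right of 0, as far as Kcnh3 at 5.50, and Kcnj5 lies at -6.99; Kcnv2 had no read in PFC, so its fitted value is no measure of its size.

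Among the pore-forming voltage-gated channels (Kcna, Kcnb, Kcnc, Kcnd, Kcnh and Kcnq), 19 of 29 tested members were higher in PFC (background 31.0%) and 5 higher in Hypo (background 32.4%). Kcnh3, an elk channel that opens at negative voltages, had the largest difference towards PFC. It lies on chromosome 15, from 99224861 to 99242817 of GRCm38 on the plus strand, and overlaps Mcrs1 on the other strand. As the strand setting of the counting is not given in the sources used here, reads from that overlap may belong to either gene. Its level was 88.8 to 228.7 CPM (median 142.9) in PFC and 2.01 to 5.202 CPM (median 2.67) in Hypo. Every PFC library lay above every Hypo library, and the log2 difference was 5.50 ± 0.16 (SE, adjusted p = 4.12e-26). Kcnh7, an erg channel, was at 221.2 to 543.0 CPM in PFC and 18.7 to 62.03 CPM in Hypo (2.72 ± 0.16, adjusted p = 1.82e-17). Averaged over both tissues, the eag channel Kcnh1 had the highest level per kb of its subfamily. The median of Kcnh3 was higher in PFC (24.8 against 22.1 CPM per kb) and that of Kcnh2 in Hypo (10.1 against 6.65 CPM per kb). Like Kcnh3 and Kcnh7, Kcnh1 was higher in PFC (1.67 ± 0.11, adjusted p = 4.96e-16). Other members of the subfamily went the other way. The elk channel Kcnh8 was at 0.104 to 0.606 CPM (median 0.299) in PFC and 2.46 to 4.25 CPM (median 3.58) in Hypo. Its tissues did not overlap either, and the log2 difference was -3.46 ± 0.16 (SE, adjusted p = 9.3e-20). The erg channels Kcnh6 (-1.07 ± 0.11, adjusted p = 7.69e-11) and Kcnh2 (-0.90 ± 0.13, adjusted p = 2.33e-07) were higher in Hypo with some overlap between the tissues. For Kcnh6 the only Hypo library within the PFC range was 471, at 5.01 CPM, and the others began at 7.398 CPM, above the highest PFC value of 5.33 CPM. In all 4 of 8 Kcnh members were higher in PFC (background 31.0%) and 3 higher in Hypo (background 32.4%).

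The Kv7 channels (Kcnq) carry the M-current, which muscarinic signals close to raise excitability, and 4 of 5 were higher in PFC (background 31.0%). Kcnq5 was at 153.9 to 263.0 CPM in PFC and 22.3 to 54.7 CPM in Hypo (2.19 ± 0.11, adjusted p = 1.13e-18). All 4 members of Kcnc, the Kv3 channels of fast-firing neurons, were higher in PFC (background 31.0%). Kcnc2 was at 164.8 to 248.2 CPM in PFC and 53.7 to 98.5 CPM in Hypo (1.38 ± 0.08, adjusted p = 1.06e-16). The differences of Kcnc1 (0.28) and Kcnc4 (0.26) were small. Their calls were lost with the mouse as a fixed block (adjusted p = 0.0884 and 0.317), and that of Kcnc4 in 4 of 47 settings. Of the Kv4 channels (Kcnd), which carry the A-type current, Kcnd2 was slightly higher in PFC (0.40 ± 0.09, adjusted p = 0.000129). Kcnd3 had a median of 117.4 CPM in PFC and 117.3 CPM in Hypo and did not pass (-0.01 ± 0.10, adjusted p = 0.943).

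The Kv1 channels (Kcna), found largely on axons and terminals, were divided. Kcna2, the most abundant of them per kb, was at 348.3 to 848.2 CPM in PFC and 173.5 to 319.1 CPM in Hypo (0.96 ± 0.12, adjusted p = 1.4e-08), without overlap. Kcna5, a delayed rectifier best known from heart and vessels, was at 0.932 to 2.38 CPM (median 1.55) in PFC and 12.6 to 19.7 CPM (median 15.2) in Hypo. It was thus higher in every Hypo library, with a log2 difference of -3.16 ± 0.13 (SE, adjusted p = 1.58e-21). Kcna3, a delayed rectifier best known from T cells, was at 6.55 to 13.3 CPM in PFC and, library 471 aside, at 12.7 to 20.3 CPM in Hypo. Its log2 difference was -0.83 ± 0.29 (SE, adjusted p = 0.0116) with all libraries and -0.91 ± 0.12 (adjusted p = 3.84e-08) without library 471. With all libraries the call was lost by limma-voom (adjusted p = 0.0679), with the mouse as a random block (adjusted p = 0.0701), with an offset for GC content and length (adjusted p = 0.0769) and without Hypo WT male 423 (adjusted p = 0.0554). Kcna6 differed little, at 108.5 to 209.1 CPM in PFC and 116.6 to 159.0 CPM in Hypo (0.30 ± 0.10, adjusted p = 0.00632), and its call was lost with the mouse as a fixed block (adjusted p = 0.128) and with no filter on low counts (adjusted p = 0.0546).

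The silent Kv subunits (Kcnf, Kcng, Kcns and Kcnv) had the largest median difference of the 6 roles, 1.60 on the log2 scale, with 8 of 10 higher in PFC (background 31.0%) and 1 higher in Hypo (background 32.4%; 8 of 9 and 0 without Kcnv2). Kcnv1 (Kv8.1) lies on chromosome 15, from 45106284 to 45114920 of GRCm38 on the minus strand. Its level was 155.3 to 278.5 CPM (median 197.1) in PFC and 5.86 to 12.3 CPM (median 10.6) in Hypo. The tissues did not overlap, the log2 difference was 4.22 ± 0.12 (SE, adjusted p = 7.55e-27), and the lowest Hypo value was that of library 471. Kcns1 (Kv9.1) was at 7.63 to 17.97 CPM in PFC and 0.702 to 1.48 CPM in Hypo (3.32 ± 0.15, adjusted p = 3.66e-20). Kcng1 (Kv6.1) was at 18.5 to 43.8 CPM in PFC and 3.29 to 5.73 CPM in Hypo (3.08 ± 0.14, adjusted p = 9.39e-21). Kcnf1 (Kv5.1) (2.15 ± 0.10, adjusted p = 1.47e-20) and Kcns2 (Kv9.2) (1.61 ± 0.08, adjusted p = 1.26e-19) were higher in PFC as well, so that these subunits with the largest differences shared one direction. The exception was Kcnv2 (Kv8.2), known from photoreceptors, which had no read in any of the 20 PFC libraries and 349 reads over the 18 Hypo libraries; against a floor of 3 reads over all PFC libraries it was at least 69.1-fold higher in Hypo. Together the silent subunits held 7.51% to 10.6% of the summed level per kb in PFC (median 9.37%) and 2.51% to 3.08% in Hypo (median 2.77%), without overlap.

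**Figure D3:**
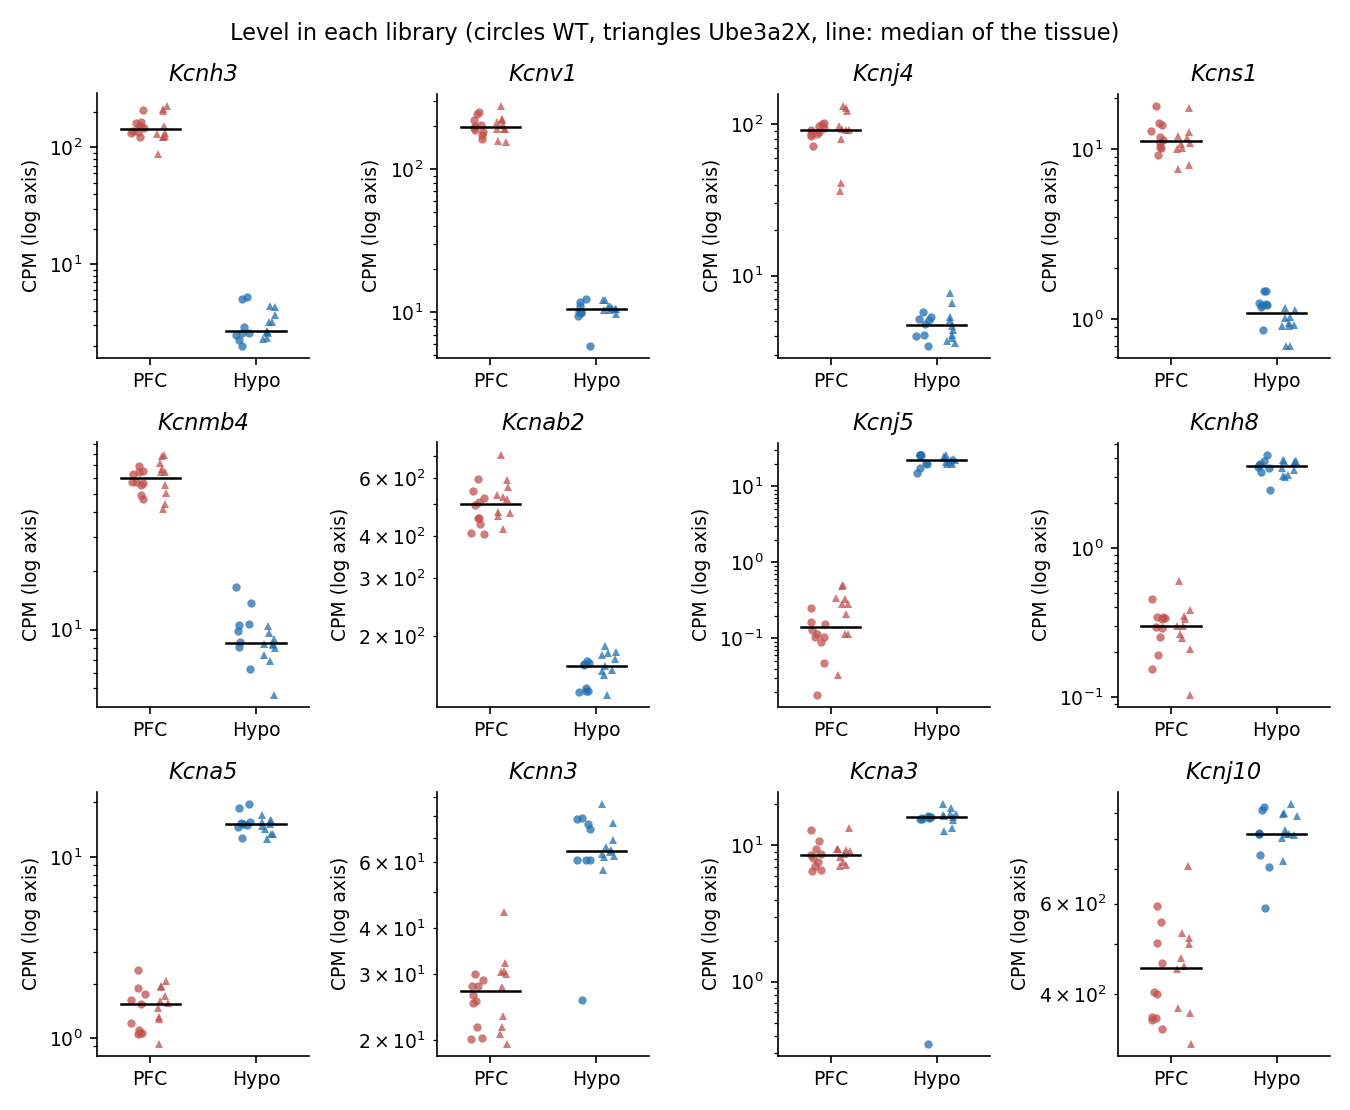
Level of 12 members in each library, in CPM on a log axis, for PFC (red) and Hypo (blue); circles are WT, triangles are Ube3a2X and each line is the median of a tissue. Kcnh3, Kcnv1, Kcnj4, Kcns1, Kcnmb4 and Kcnab2 lie higher in every PFC library and Kcnj5, Kcnh8 and Kcna5 in every Hypo library; for Kcna3 and Kcnn3 the lowest Hypo point is library 471.

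Of the calcium- and sodium-activated channels, 4 of 7 were higher in PFC (background 31.0%) and 2 higher in Hypo (background 32.4%), of which Kcnn4 passed the low-count filter only through Hypo; without it 1 of 6, Kcnn3, was higher in Hypo. Kcnma1, the pore of the large-conductance BK channel, was at 393.2 to 862.7 CPM in PFC and 89.1 to 253.6 CPM in Hypo (1.46 ± 0.13, adjusted p = 9e-12), without overlap. Kcnn3, a small-conductance SK channel that shapes the pause after a spike, was at 19.6 to 44.1 CPM in PFC and 25.7 to 86.4 CPM in Hypo (-1.25 ± 0.15, adjusted p = 3.44e-09). It was higher in Hypo, and the one Hypo value within the PFC range was that of library 471, without which the log2 difference was -1.31. The sodium-activated channels parted. Kcnt2 (Slick) was higher in PFC, at 42.8 to 73.95 CPM in PFC and 5.46 to 19.01 CPM in Hypo (1.78 ± 0.14, adjusted p = 8e-14). Kcnt1 (Slack) had medians of 91.5 CPM in PFC and 98.7 CPM in Hypo and did not pass (-0.17 ± 0.10, adjusted p = 0.141), though it did at -0.23 without library 471 (adjusted p = 0.0437) and at -0.25 without PFC WT male 251 (adjusted p = 0.031). Kcnu1 (Slo3), known from sperm, was at 2.73 to 4.72 CPM in PFC and 1.55 to 2.86 CPM in Hypo (0.47 ± 0.12, adjusted p = 0.00108), a call lost with the mouse as a fixed block (adjusted p = 0.478).

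The inward rectifiers (Kcnj) included the member with the largest difference towards Hypo that was read in both tissues, and 7 of 13 tested were higher in PFC (background 31.0%) and 5 higher in Hypo (background 32.4%). The 250 bases before the start of Kcnj4, Kcnj5, Kcnj9 and Kcnj10 are shown because these genes carry the largest and the opposed differences of the subfamily. For Kcnj5 and Kcnj9 the start used differs by a few bases from the annotated gene start. The Kcnj5 window therefore reaches just inside the annotated gene. The sequences are from RefSeq (GRCm38.p6), read 5′ to 3′ along each gene's strand: chr15:79505242-79505491 (minus) for Kcnj4, chr9:32344345-32344594 (minus) for Kcnj5, chr1:172329323-172329572 (minus) for Kcnj9 and chr1:172340960-172341209 (plus) for Kcnj10. Capitals mark the GC box, GGGCGG on either strand.
Kcnj4: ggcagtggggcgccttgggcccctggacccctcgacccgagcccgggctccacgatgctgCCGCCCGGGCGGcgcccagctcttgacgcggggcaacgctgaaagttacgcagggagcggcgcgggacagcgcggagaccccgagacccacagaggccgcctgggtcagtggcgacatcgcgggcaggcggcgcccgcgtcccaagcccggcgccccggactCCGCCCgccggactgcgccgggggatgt
Kcnj5: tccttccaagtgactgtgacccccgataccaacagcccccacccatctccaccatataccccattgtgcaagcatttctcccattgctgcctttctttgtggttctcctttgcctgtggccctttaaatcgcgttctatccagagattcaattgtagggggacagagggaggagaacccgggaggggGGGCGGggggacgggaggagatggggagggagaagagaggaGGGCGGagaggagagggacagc
Kcnj9: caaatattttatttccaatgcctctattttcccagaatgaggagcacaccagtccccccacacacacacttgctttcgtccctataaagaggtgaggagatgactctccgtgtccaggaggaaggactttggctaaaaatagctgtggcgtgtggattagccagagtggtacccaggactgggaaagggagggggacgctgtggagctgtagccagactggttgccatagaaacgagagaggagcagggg
Kcnj10: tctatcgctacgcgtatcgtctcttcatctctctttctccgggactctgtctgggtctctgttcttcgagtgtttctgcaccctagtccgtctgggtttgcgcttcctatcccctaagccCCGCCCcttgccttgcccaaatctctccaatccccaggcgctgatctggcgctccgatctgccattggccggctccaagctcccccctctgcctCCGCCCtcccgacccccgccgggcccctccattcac

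Kcnj4 (Kir2.3), a strong rectifier, lies on chromosome 15, from 79483714 to 79505241 of GRCm38 on the minus strand. Its level was 36.1 to 133.2 CPM (median 91.4) in PFC and 3.44 to 7.65 CPM (median 4.69) in Hypo. Every PFC library lay above every Hypo library, the log2 difference was 4.08 ± 0.21 (SE, adjusted p = 7.33e-19), and the lowest PFC libraries were Ube3a2X female 468 and Ube3a2X male 258. Kcnj5 (GIRK4), a channel opened by G proteins, lies on chromosome 9, from 32314707 to 32344350 of GRCm38 on the minus strand. Its level was 0.0182 to 0.497 CPM (median 0.143) in PFC and 15.2 to 26.3 CPM (median 22.1) in Hypo. It had at most 28 reads in a PFC library, and the log2 difference was -6.99 ± 0.20 (SE, adjusted p = 2.09e-26). The other G-protein-gated subunits, with which Kcnj5 can assemble, were higher in PFC. Kcnj3 (GIRK1) was at 174.8 to 345.8 CPM in PFC and 54.6 to 82.6 CPM in Hypo (1.75 ± 0.09, adjusted p = 2.21e-18), and Kcnj9 (GIRK3) at 166.3 to 245.8 CPM in PFC and 63.3 to 93.8 CPM in Hypo (1.36 ± 0.07, adjusted p = 4.03e-18). Kcnj6 (GIRK2) was at 26.2 to 50.7 CPM in PFC and 3.58 to 30.6 CPM in Hypo (0.77 ± 0.19, adjusted p = 0.000712); the lowest Hypo value is that of library 471, without which they began at 16.8 CPM, and 1 Hypo library, Ube3a2X male 238, lay within the PFC range.

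Kcnj10 (Kir4.1), the main inward rectifier of astrocytes, was the most abundant member per kb in Hypo and the second in PFC. Its level was 321.1 to 710.2 CPM (median 450.8) in PFC and 587.2 to 937.9 CPM (median 819.3) in Hypo. The tissues overlapped, with a log2 difference of -0.84 ± 0.12 (SE, adjusted p = 1.17e-07). Its partner Kcnj16 (Kir5.1) was also higher in Hypo (-0.69 ± 0.13, adjusted p = 3.33e-05). Of the 8 astrocyte markers, 4 were higher in Hypo and 1 higher in PFC, and none was under 1 CPM in either tissue. Their sum, of which Slc1a2 was the largest part, was 5112 to 11420 CPM in PFC and 3537 to 5180 CPM in Hypo. Gfap, an astrocyte filament, had a median of 58.9 CPM in PFC and 381.8 CPM in Hypo. All 8 markers of oligodendrocytes, which also use Kcnj10, were higher in Hypo (sum 1029 to 3587 CPM in PFC and 3246 to 5430 CPM in Hypo). The part of these cells in the Kcnj10 result was not tested. Kcnj14 (Kir2.4) was low in both tissues, at 0.167 to 1.201 CPM in PFC and 0.825 to 2.202 CPM in Hypo (-0.82 ± 0.21, adjusted p = 0.00075).

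Kcnj9 and Kcnj10 lie head to head on chromosome 1, with 11.9 kb between them. Of 10 neighbouring pairs within 500 kb whose members both passed, 7 differed in direction and 3 shared it. Kcnj9 and Kcnj10 differed, as did Kcna5 and Kcna1, 105.0 kb apart on chromosome 6, Kcna3 and Kcna2, 63.1 kb apart on chromosome 3, Kcnj16 and Kcnj2, 38.2 kb apart on chromosome 11, and the more distant pairs Kcnj6 and Kcnj15, Kcnk15 and Kcns1, and Kcnj14 and Kcnj11. Kcna1 and Kcna6, Kcnj11 and Kcnc1, and Kcnip1 and Kcnmb1 shared a direction. The opposed pair of Kcnk15 and Kcns1 is no support, since Kcnk15 passed the low-count filter only through Hypo, where it was higher. Of the members in these pairs, Kcnj2 (adjusted p = 0.411), Kcnc1 (0.0884), Kcnj15 (0.361), Kcnk15 (0.123) and Kcna6 did not pass with the mouse as a fixed block, nor Kcna3 with the mouse as a random block. The call of Kcnj15 (adjusted p = 0.0423) was lost in 16 of 46 settings, and those of Kcnj2 and Kcnk15 also without Hypo WT male 423. How often neighbouring genes in general differ in direction was not examined.

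The window of Kcnj4 printed above held 35 CpG and 3 GC boxes, that of Kcnj5 7 and 2, that of Kcnj9 5 and 0, and that of Kcnj10 17 and 2. Of these windows, that of Kcnj9 alone held TATAAA on either strand. Among 91 such windows of 66 members, 45.05% held a GC box, 2.198% TATAAA and 28.6% CCAAT, against 32.7%, 12.4% and 33.9% of all 32851 windows. The GC box was in 48% of 50 windows of members higher in PFC and in 52.2% of 23 of those higher in Hypo. A match is a description and not a binding site.

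Of the K2P leak channels (Kcnk), 4 of 12 tested were higher in PFC (background 31.0%), 5 were higher in Hypo (background 32.4%), and the median log2 difference was -0.26. Without Kcnk7 and Kcnk15, which passed the low-count filter only through Hypo, 4 of 10 were higher in PFC and 3 higher in Hypo, with a median of -0.08. Kcnk4 (TRAAK), a leak channel that responds to membrane stretch, was at 11.3 to 22.8 CPM in PFC and 2.17 to 3.33 CPM in Hypo (2.505 ± 0.11, adjusted p = 7.67e-21). Kcnk1 (TWIK1), the most abundant per kb, was at 58.4 to 99.5 CPM in PFC and 26.6 to 48.7 CPM in Hypo (0.91 ± 0.09, adjusted p = 1.71e-10). Both were higher in every PFC library. Kcnk13 (THIK1), known as a leak channel of microglia, was at 1.86 to 5.73 CPM in PFC and 6.36 to 9.41 CPM in Hypo (-1.32 ± 0.13, adjusted p = 1.23e-10), higher in every Hypo library. Of the 8 microglia markers 6 were higher in PFC and 0 in Hypo, and their sum was 321.8 to 482.0 CPM in PFC and 260.8 to 324.3 CPM in Hypo.

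Among the auxiliary subunits (Kcnab, Kcnip, Kcne and Kcnmb), 9 of 12 tested were higher in PFC (background 31.0%) and 2 higher in Hypo (background 32.4%; 8 of 11 and 2 without Kcne3). All 3 Kv beta subunits (Kcnab), which dock on Kv1 channels, were higher in PFC. Kcnab2 was the most abundant member of the family per kb in PFC, at 72.9 to 126.6 CPM per kb, and the second in Hypo, at 23.9 to 33.4 CPM per kb. Its range in PFC overlapped that of Kcnj10, and its log2 difference was 1.62 ± 0.08 (SE, adjusted p = 7.55e-19). The calcium sensors that bind Kv4 channels (Kcnip) were divided, 3 higher in PFC and 1 higher in Hypo. Kcnip4 was at 92.4 to 171.0 CPM in PFC and 75.6 to 102.1 CPM in Hypo (0.49 ± 0.08, adjusted p = 4.85e-06), a call lost with the mouse as a fixed block (adjusted p = 0.0726), and Kcnip1 was at 23.2 to 31.6 CPM in PFC and 47.5 to 68.5 CPM in Hypo (-1.04 ± 0.07, adjusted p = 4.37e-16). Kcnmb4, the BK beta subunit of neurons, was at 41.5 to 79.5 CPM in PFC and 4.63 to 16.5 CPM in Hypo (2.71 ± 0.17, adjusted p = 3.85e-16). Kcnmb1, the BK beta subunit of smooth muscle, was at 0.249 to 0.7498 CPM in PFC and 1.37 to 3.27 CPM in Hypo (-2.09 ± 0.17, adjusted p = 2.51e-13). It lies within Kcnip1 on the opposite strand, and reads from this overlap, too, may belong to either gene. Kcne4, the most abundant Kcne per kb, was at 0.488 to 2.02 CPM in PFC and 0.976 to 1.77 CPM in Hypo and did not pass (-0.24 ± 0.18, adjusted p = 0.239).

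**Figure D4:**
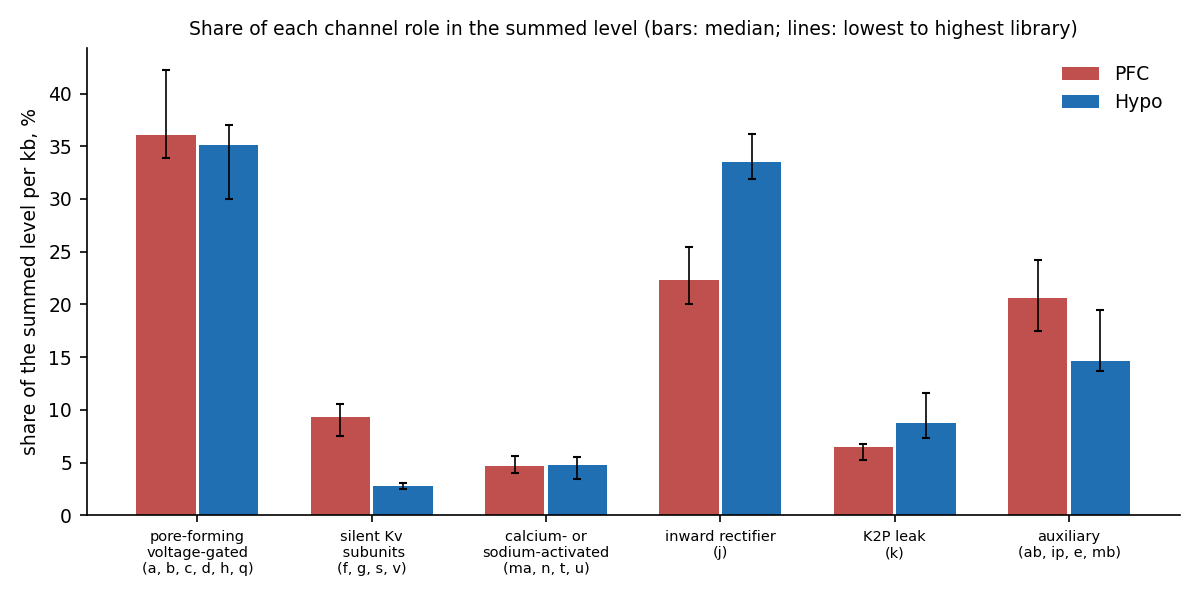
Share of 6 channel roles in the level per kb summed over the 90 members, in percent, for PFC (red) and Hypo (blue); bars are the median over libraries and lines run from the lowest to the highest library. Silent Kv subunits have 9.37% in PFC and 2.77% in Hypo, and inward rectifiers 22.3% in PFC and 33.5% in Hypo.

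Inward rectifiers held 20.02% to 25.5% of the summed level in PFC and 31.9% to 36.2% in Hypo. K2P channels held 5.25% to 6.79% and 7.37% to 11.6%, and both roles had larger shares in every Hypo library. The medians of their summed levels went the other way. They were 261.6 CPM per kb in PFC and 227.7 in Hypo for inward rectifiers, and 74.5 and 59.6 for K2P channels. Kcnj10 alone had a median of 83.4 CPM per kb in PFC and 151.5 in Hypo. The shares without Kcnj10 were not computed. The pore-forming voltage-gated channels held like shares, 33.9% to 42.2% in PFC and 30.01% to 37.01% in Hypo, and these ranges overlapped. In PFC the members highest per kb after Kcnab2 and Kcnj10 were Kcnj9, Kcnj3 and Kcnv1, and in Hypo Kcnip4, Kcna2 and Kcna6, whose ranges overlapped within each tissue.

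Proteins that work with these channels without being potassium channels were followed on a list of 23 genes, of which 21 could be tested. Of these, 14 were higher in PFC (background 31.0%), 5 higher in Hypo (background 32.4%) and 2 did not pass. Calm2, which encodes calmodulin, the calcium sensor of SK and Kv7 channels, was higher in PFC (1.34 ± 0.09, adjusted p = 4.71e-15). Lgi1, a secreted protein linked to Kv1 channels, was higher in PFC too (1.25 ± 0.07, adjusted p = 3.43e-17). The pacemaker channels Hcn4 (-2.06 ± 0.14, adjusted p = 3.91e-15) and Hcn3 (-1.21 ± 0.13, adjusted p = 1.86e-10) were higher in Hypo. The auxiliary subunits parted. Of those of Kv4 channels, Dpp6 was higher in Hypo (-0.61 ± 0.06, adjusted p = 1.16e-10) and Dpp10 higher in PFC (0.93 ± 0.09, adjusted p = 1.83e-11). Of those of BK channels, Lrrc55 was higher in Hypo (-0.35 ± 0.15, adjusted p = 0.0385) and Lrrc38 higher in PFC (0.65 ± 0.20, adjusted p = 0.00574). Neither call of Lrrc55 and Lrrc38 held with the mouse as a fixed block (adjusted p = 0.626 and 0.242), and they were lost in 9 of 47 and 2 of 46 settings.

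Between Ube3a2X and WT no member passed the test in either tissue. In PFC the smallest adjusted p of 62 tested members was 0.235 (background called 0.0183%), and 4 had an unadjusted p under 0.05 (6.45%, background 7.9%). In Hypo the smallest adjusted p of 63 members was 0.919 (background called 0.00843%), and 4 had an unadjusted p under 0.05 (6.35%, background 5.24%). The Hypo count moved with single libraries: it was 14 of 63 without WT male 403 (background 10.4%, smallest adjusted p 0.0779), 8 of 66 without Ube3a2X male 404 (background 8.19%) and 0 of 62 without WT male 245 (background 4.61%). It also moved with the filter on low counts, to 10 of 82 with filterByExpr (background 6.59%) and 10 of 90 with no filter (background 7.1%). In PFC the count ran from 3 of 63 without WT male 266 (background 5.46%) to 7 of 63 without Ube3a2X male 402 (background 9.66%), and it was 11 of 79 with filterByExpr (background 11%) and 10 of 88 with no filter (background 7.67%). The median absolute log2 difference was 0.05695 in PFC and 0.0511 in Hypo, and the median standard error 0.0745 and 0.0657. DESeq2 called 1 member in PFC, Kcnt1, where it called 0.294% of all genes tested, and 0 in Hypo.

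Kcnt1 (Slack) had the smallest p in PFC. In females it was at 92.3, 94.7, 97.7, 98.8 and 101.3 CPM in WT and at 58.7, 75.3, 84.2, 84.9 and 93.05 CPM in Ube3a2X. In males it was at 90.05, 90.3, 90.8, 101.9 and 125.2 CPM in WT and at 70.04, 88.3, 90.1, 96.7 and 113.0 CPM in Ube3a2X. Among females 1 Ube3a2X library reached into the WT range, and the male groups overlapped broadly. The log2 difference was -0.21 ± 0.05 (SE, unadjusted p = 0.000648), with an adjusted p of 0.235 by edgeR and 0.0472 by DESeq2. With filterByExpr it was -0.13 (adjusted p = 0.391), and with RIN as the only covariate -0.25 (adjusted p = 0.872). Kcnh4, an elk channel, was next at -0.32 ± 0.10 (adjusted p = 0.36). It was at 8.13, 8.43, 9.32, 12.4 and 16.9 CPM in WT females and at 5.99, 6.202, 6.53, 7.81 and 10.3 CPM in Ube3a2X females, which overlapped. The leak channel Kcnk2 (0.18 ± 0.07), Kcnt2 (-0.19 ± 0.08) and Kcna6 (0.11 ± 0.06) followed. In Hypo the smallest p were those of Kcng1 (-0.25 ± 0.10), Kcnmb4 (-0.22 ± 0.09), Kcnip1 (-0.11 ± 0.05), Kcnn3 (-0.13 ± 0.06) and Kcnd3 (-0.09 ± 0.05), with adjusted p from 0.919 to 0.93. With filterByExpr the PFC value of Kcna6 was 0.20. In Hypo that of Kcnmb4 was -0.13 with no filter and -0.42 with RIN as the only covariate, where that of Kcnip1 was -0.18, Kcnn3 0.057 and Kcnd3 0.027. Without PFC WT female 93 the PFC value of Kcnt2 was -0.12, and without Hypo WT male 245 those of Kcnip1 and Kcnd3 in Hypo were -0.056 and -0.056. Without library 471 the value of Kcnn3 was -0.10.

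The difference of the genotype effect between the tissues passed for 0 of 83 members by edgeR (background 0.0%, smallest adjusted p 0.185), and DESeq2 called 0. At an unadjusted p under 0.05 there were 9 (background 11.1%). Without PFC Ube3a2X male 258 1 member passed, where 1.12% of all genes did. It was Kcne3, at medians of 0.151 CPM in PFC and 0.0786 CPM in Hypo.

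For the sex by genotype interaction, the effect of genotype in males minus that in females, edgeR called 0 members in PFC (background 0.0%) and 0 in Hypo (background 0.0%). In PFC 12 of 62 had an unadjusted p under 0.05 (background 25.2%), with a smallest adjusted p of 0.0958, and in Hypo 3 of 63 (background 6.9%), with a smallest adjusted p of 0.703. DESeq2 called 4 members in PFC, Kcnt2, Kcnab2, Kcnc4 and Kcnv1, where it called 7.14% of all genes tested, and 0 in Hypo. The study itself reports a large set of genes passing for this interaction in PFC by limma-voom, and no gene in Hypo. It also followed chosen genes by qRT-PCR in separate mice. Why the PFC result of edgeR differs from the study's was not tested. The PFC count by edgeR rested on single libraries: it was 11 without WT female 93 (all genes 14.9%), 7 without Ube3a2X female 462 (9.57%) and 5 without Ube3a2X male 253 (9.56%), and 0 without any other single PFC library. The PFC count at an unadjusted p under 0.05 moved both ways with single libraries. Without WT female 397 it was only 1 of 63 (background 5.65%, smallest adjusted p 0.771). Without Ube3a2X male 238 it was 5 of 62 (background 12.4%) and without Ube3a2X male 258 6 of 63 (background 14.2%). It rose most without WT female 93, to 27 of 62 (background 34.3%). Without Ube3a2X female 462 it was 25 of 62 (background 32.6%). With filterByExpr there were 19 of 79 (background 20.7%). In Hypo the count was 15 of 63 without WT male 403 (background 9%) and 13 of 66 without Ube3a2X male 404 (background 11.1%), 12 of 82 with filterByExpr (background 8%) and 0 of 63 with RIN as the only covariate (background 1.05%). Within one sex the genotype test passed for 0 members in any of the 4 fits (background 0.0275% in PFC males, 0.00917% in PFC females, 0.0% in Hypo males and 0.00843% in Hypo females). At an unadjusted p under 0.05 there were 10 members in PFC males (background 18.3%), 8 in PFC females (background 14.6%), 8 in Hypo males (background 9.2%) and 0 in Hypo females (background 2.93%). These counts moved with single libraries. In PFC males they ran from 5 of 62 without Ube3a2X male 238 (background 6.52%) to 14 of 63 without Ube3a2X male 402 (background 15.7%). In PFC females they ran from 3 of 63 without WT female 259 (background 9.02%) to 18 of 62 without WT female 93 (background 24.2%). In Hypo males they ran from 2 of 62 without WT male 245 (background 7.53%) to 22 of 63 without WT male 403 (background 12.9%), and the count there was 20 of 82 with filterByExpr (background 10.9%) and 2 of 63 with RIN as the only covariate (background 2.47%). In PFC males it was 2 of 62 with RIN as the only covariate (background 8.17%). DESeq2 called Kcnt2 and Kcnab2 in PFC males, where it called 2.25% of all genes tested. Without Hypo WT male 403 edgeR called Kcna2 in Hypo males, where it called 0.412%.

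Kcnab2 had the smallest interaction p in PFC. In males it was at 406.5, 410.2, 436.1, 497.2 and 520.5 CPM in WT and at 525.0, 531.6, 565.0, 591.3 and 706.4 CPM in Ube3a2X. In females it was at 454.0, 455.0, 506.9, 546.5 and 596.1 CPM in WT and at 420.8, 460.8, 469.5, 474.0 and 517.8 CPM in Ube3a2X. Every Ube3a2X male lay above every WT male while the female groups overlapped, and the interaction was 0.50 ± 0.14 on the log2 scale (adjusted p = 0.0958). Kcnt2 (Slick) went the other way. In males it was at 53.5, 57.6, 63.3, 63.3 and 73.95 CPM in WT and at 42.9, 45.03, 47.2, 47.3 and 49.7 CPM in Ube3a2X. In females it was at 42.8, 44.96, 49.2, 59.9 and 63.1 CPM in WT and at 49.8, 55.7, 56.1, 59.5 and 68.2 CPM in Ube3a2X. The male groups again did not overlap, and the interaction was -0.52 ± 0.16 (adjusted p = 0.0964). Kcnc4 (0.31 ± 0.09), a Kv3 channel, Kcnv1 (-0.46 ± 0.15) and Kcnh3 (0.45 ± 0.16) followed, with adjusted p from 0.0964 to 0.116. Without WT female 397 Kcnt2 was at -0.34, Kcnc4 at 0.18 and Kcnh3 at 0.18, and without Ube3a2X male 258 Kcnv1 was at -0.30. With an offset for GC content and length the interactions were smaller, 0.23 for Kcnab2, -0.29 for Kcnt2, 0.034 for Kcnc4, -0.28 for Kcnv1 and 0.079 for Kcnh3.

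Other measures moved with genotype among the PFC males. Intronic bases made up 3.103% to 4.004% in Ube3a2X and 4.398% to 5.85% in WT, without overlap. The share of reads that lay on the expected strand was 92.1% to 99.1% (median 99.1%) in Ube3a2X and 92.6% to 95.2% (median 93.6%) in WT. The 8 astrocyte markers summed to 6173 to 11420 CPM in Ube3a2X and 5112 to 6989 CPM in WT, the 8 microglia markers to 436.4 to 482.0 CPM and 326.4 to 433.7 CPM, and the 9 markers of endothelium and mural cells to 409.4 to 713.4 CPM and 314.5 to 476.7 CPM. Of these sums that of microglia did not overlap between the genotypes. Their part in the values of Kcnab2 and Kcnt2 was not tested.

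**Figure D5:**
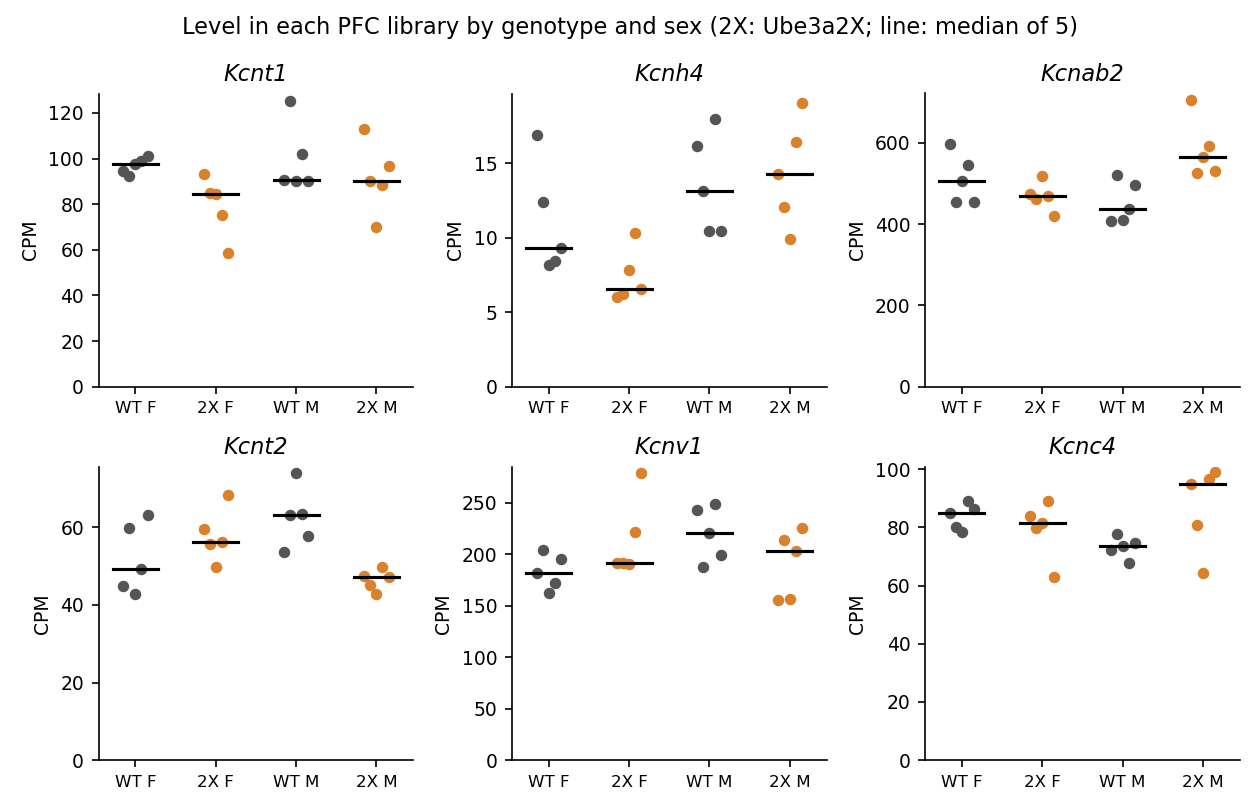
Level of 6 members in each of the 20 PFC libraries, in CPM from 0, by genotype and sex (WT grey, Ube3a2X orange and labelled 2X; F female, M male); each line is the median of 5 libraries. Among males Kcnab2 lies higher and Kcnt2 lower in every Ube3a2X library than in any WT library, while the female groups overlap.

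In Hypo the smallest interaction p was that of Kcnd2, at -0.20 ± 0.07 (adjusted p = 0.703). In females it was at 68.1 CPM in library 471 and at 109.7, 112.8 and 116.1 CPM in the other WT, against 110.0, 115.2, 116.5, 120.4 and 128.2 CPM in Ube3a2X. In males it was at 110.4, 121.9, 123.6 and 129.9 CPM in WT and at 100.7, 109.6, 112.5, 119.7 and 123.3 CPM in Ube3a2X. The groups overlapped in both sexes, and the fitted genotype difference was -0.17 ± 0.05 in males and 0.03 ± 0.05 in females. Without library 471 it was no longer tested, since it failed the filter on variance. For Kcna3 the interaction was -0.51 ± 0.28 with library 471 and 0.04 ± 0.19 without it. The same step took Kcnt2 from -0.31 to -0.09, Kcnj9 from 0.35 to 0.29 and the leak channel Kcnk3 from 0.21 to 0.29. Without Ube3a2X male 238 Kcnj9 was at 0.23, and Kcnk3 was at 0.093 without WT male 245 and at 0.33 without WT male 403. With filterByExpr Kcnk3 was at 0.34 and Kcna3 at 0.20, and without Ube3a2X male 238 Kcnt2 was at -0.20.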

How the data were processed

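RNA from PFC and Hypo of adult FVB/NJ mice was sequenced from stranded, paired-end TruSeq mRNA libraries. The authors aligned reads with STAR to GRCm38 (mm10) and deposited raw read counts per gene from featureCounts; versions and the strand setting of the counting are not given in the sources used here. The authors also deposited quality measures per library, among them the RIN score, fractions of bases (untranslated, intronic) and of reads on the expected strand and the ratio of 5′ to 3′ coverage.

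Levels are CPM with TMM factors, or CPM per kb of the union of annotated exons; all 90 members were found in the annotation, as were 53905 of the 54165 genes. The tissue comparison was fitted on all 38 libraries with edgeR's quasi-likelihood test (8 groups of tissue, sex and genotype, RIN as covariate, genes passing filterByExpr), with Benjamini-Hochberg adjustment over all genes tested. Genotype and its interaction with sex were fitted within each tissue, with filters and covariates after the study's methods. Genes that had at least 100 reads in all libraries or all but 1 were kept, and then the 15% that varied least were dropped. This left 10900 genes in PFC and 11869 in Hypo, fewer than the study's methods give. The covariates were RIN and 2 surrogate variables (sva). The main test was edgeR in place of the study's limma-voom, which was run as an alternative. Alternatives were DESeq2, limma-voom, RLE factors, other filters and covariates, an offset for GC content and length, the mouse as a block, and each library left out in turn. Scripts were tested on simulated data.

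The 13 mice with both tissues pair those libraries because they come from the same animal; over genes, the deviations of a mouse's libraries from their group means correlated between -0.309 and 0.211. The number of counted reads per library ran from 36887511 to 380819301. The members and gene lists were chosen with earlier results of these data known. Named members are the 12 per direction with the largest tissue difference (adjusted p under 0.05, mean of at least 1 CPM in the higher tissue), the 5 highest per kb in each tissue, the highest of each subfamily, and the 5 with the smallest p for genotype and for the interaction in each tissue; of the channel partners, the 4 per direction with the largest difference. Some genes that this rule names are not reported here. All genes named outside the rule (among them Dpp10, Lrrc38, Kcna1, Kcnj6, Kcnj16, Kcnq3 and Kcnv2, untested members and neighbouring pairs) were named after their values were seen. R 4.3.3, edgeR 4.0.16, limma 3.58.1, sva 3.50.0, DESeq2 1.42.0, Python 3.11.15 and matplotlib 3.10.9 were used.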

Additional observations from a re-analysis of the deposited data

Results flagged for a closer look

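Within groups of 4 or 5 libraries, the gap of an extreme library to its nearest neighbour was compared with the group's range by Dixon's test; 76 groups of named members were examined, and chance alone flags about 1 in 20. Of these, 6 stood out. Kcnh3 was at 207.8 CPM in PFC WT female 259, against 135.7 to 152.1 CPM in the other WT females. Kcng1 was at 5.73 CPM in Hypo Ube3a2X female 420, the deepest library, against 3.59 to 3.96 CPM. Kcnn3 was at 60.9 CPM in Hypo WT male 423, against 76.1 to 79.1 CPM. Kcnt2 was at 17.5 CPM in Hypo WT male 245, against 16.8 to 16.9 CPM, a narrow group. Kcnd2 was at 68.1 CPM in Hypo WT female 471, against 109.7 to 116.1 CPM, and Kcna3 at 0.351 CPM in the same library, against 15.6 to 16.2 CPM.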

How the results depend on the processing

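No named difference that passed changed its direction. Among differences that did not pass, the sign changed for Kcnn3 (0.057) and Kcnd3 (0.027) for genotype in Hypo with RIN as the only covariate, and for the Kcna3 interaction in Hypo with filterByExpr (0.20) and with no filter (0.27); it ran from -0.62 to 0.045 when single libraries were left out. Of the tissue counts, 51 members higher in PFC ranged from 41 (mouse as a fixed block) to 55 (no RIN), and from 48 to 51 when single libraries were left out; 20 higher in Hypo ranged from 17 to 21 when single libraries were left out, fell to 10 with the 100-read and variance filter, which tested fewer members, and to 13 within Ube3a2X males. At 2-fold, the 13 higher in Hypo fell to 4 with that filter and ranged from 12 to 13 without single libraries, and the 33 higher in PFC from 32 to 34. With the mouse as a fixed block over 13 pairs, 41 were higher in PFC and 14 in Hypo, of which 34 and 9 by at least 2-fold; with the mouse as a random block 50 and 19. Of the 71 tissue calls the fixed block lost 16 and the random block 2, and of 19 calls of channel partners 4 and 0; none turned. DESeq2 called 1 member for genotype in PFC and 4 for the interaction in PFC, and leaving out single PFC libraries gave 0 to 11 for the interaction, where edgeR called 0 with all of them; the cause was not tested. For the genotype effect between tissues that range was 0 to 1. The summed level per kb became 1424 in PFC and 797.2 in Hypo with the longest transcript as the length, and 1073 and 759.1 with CPM without TMM factors. Of 40 tissue differences chosen by the naming rule, 35 kept their call in all settings. The lowest members, under 1 CPM, are limited by depth.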
